A study of Homo sapiens with 16 samples.

Results

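The 37 genes described here encode proteins that build the centromere and the kinetochore. They were chosen by name, as the CENP proteins, the loading factors of CENP-A, the outer kinetochore, the SKA complex and the chromosomal passenger complex. All 37 were matched by Ensembl identifier to rows of a raw count table of 58787 genes, and all 37 were among the 14193 genes with enough counts to test. The RNA came from IMR32, a cell line established from a human neuroblastoma that carries amplified MYCN. Cells had received a small interfering RNA (siRNA), which was either non-targeting (siNTC) or one of 3 that target TPX2 (si45, si46 or si47). Each of the 4 groups had 4 replicates, which the series calls biological, and the table's column names add 48 h. Every library is from this 1 line, and no untransfected cells were analysed here. The title names TPX2 as a target that eIF4A, an RNA helicase of translation, controls in MYCN-driven tumours, and the comparison read here is what happens to the kinetochore transcripts when TPX2 is depleted.

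The kinetochore is the protein assembly that attaches each chromosome to spindle microtubules in mitosis. Its base is chromatin in which the histone variant CENP-A replaces histone H3, on which an inner network of CENP proteins holds the outer complexes MIS12, KNL1 and NDC80, and NDC80 grips the microtubule. Many of these genes are transcribed mainly from late S phase to mitosis, and TPX2, which builds microtubules around chromosomes and activates the kinase AURKA, is transcribed in the same window.

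Many promoters of genes that are transcribed in G2 and mitosis hold a short element called the cell cycle genes homology region (CHR), the site read by the MuvB complexes, often near CCAAT boxes, which bind NF-Y. The stretches below show such matches in the promoters of kinetochore genes on both sides of the significance threshold used here, so that the sequences can be set beside the RNA values that follow. Each is 30 bases from the RefSeq promoter table (GRCh38.p14), read 5′ to 3′ on the gene's strand, and the capitals mark 1 match to TTTGAA or TTCGAA on either strand. In NDC80 the 6 bases after the capitals match TTCGAA as well. The first 5 belong to genes that passed the test in the contrast of all 3 siRNAs against siNTC.
HJURP, chr2:233854629-233854658, minus strand: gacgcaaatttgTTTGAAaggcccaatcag
NDC80, chr18:2571542-2571571, plus strand: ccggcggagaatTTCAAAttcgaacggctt
INCENP, chr11:62123989-62124018, plus strand: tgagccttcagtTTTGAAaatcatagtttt
CDCA8, chr1:37692481-37692510, plus strand: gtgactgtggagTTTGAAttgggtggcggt
CENPF, chr1:214603215-214603244, plus strand: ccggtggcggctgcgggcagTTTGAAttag

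The other 5 belong to genes that did not pass.
CENPA, chr2:26786026-26786055, plus strand: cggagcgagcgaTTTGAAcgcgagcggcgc
OIP5, chr15:41332573-41332602, minus strand: gcctggcgtgtaTTCGAAaggaaggcgccg
NUF2, chr1:163321958-163321987, plus strand: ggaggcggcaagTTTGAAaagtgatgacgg
ZWINT, chr10:56361273-56361302, minus strand: gtcgactgtgacTTCAAAgtaatcttaggg
SKA3, chr13:21176538-21176567, minus strand: ccggcgccgagaTTCAAActagtggcggga

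The promoter table runs from 250 bases before to 50 bases after a start and held 31 of the 37 genes. A CHR match (TTTGAA or TTCGAA or TTTAAA, either strand) was found for 18 of these 31 genes, 58.1%, against 29.03% of the 27305 genes in the table. CCAAT, on either strand, was found for 21 of 31 genes, 67.7%, against 39.7% of all genes. An E2F match (TTTGGCGC, TTTCCCGC, TTTGCCGC or TTTCGCGC) was found for 4 of 31, 12.9%, against 3.99%. A CHR match stood in 7 of the 13 matched genes that passed the test and in 11 of the 18 that did not, and CCAAT stood in 9 of 13 and 12 of 18. CENPI, whose log2 difference was the most negative of the 37, had no match to any of these words in its window. A match is a description of the letters, which can overlap (in CDCA8 the CHR match shares bases with a reversed CCAAT), and not a site or a cause.

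The libraries held 5318159 to 7864343 counts, and the lowest count of any of the 37 genes in any library was 39, for CENPN. Levels are given as CPM, a gene's count per library size on a common scale, after TMM scaling. The library kit reads the 3′ end of transcripts, so counts are not divided by gene length. Adrenergic neuroblastoma markers were present, with GATA3 at 1106 CPM in siNTC, and the summed level of the 8 markers was 4802 to 5577 CPM over the 16 libraries. TH, also on that list, was low at 2.78 CPM. DBH, the enzyme that makes noradrenaline, fell by 0.56 in the mean of the 3 siRNAs (adjusted p = 1.27e-05; 234 ± 35.7 CPM in siNTC, all 12 knockdown libraries lower), and HAND2, a transcription factor of the lineage, rose by 0.23 (adjusted p = 0.0193; 715 ± 31.6 CPM, all 12 higher). Their part in the results below was not tested. The 8 mesenchymal markers, of which 3 were tested, summed to 252 to 319 CPM, mostly TWIST1, the 6 Schwann cell markers to 5.38 to 11.3 CPM with SOX10 at 0, and the 5 leukocyte markers to 0.157 to 2.57 CPM with CD3E and LYZ at 0.

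TPX2 (ENSG00000088325, chr20:31739271-31801805, plus strand), the targeted gene, was checked first. It stood at 315, 339, 297 and 359 CPM in siNTC replicates 1 to 4, at 80.9, 79.4, 121 and 85.1 under si45, at 90.9, 79.8, 93.8 and 62.2 under si46, and at 68.7, 69.7, 76.3 and 71.3 under si47. All 12 knockdown libraries lay below every control. The mean of the 3 siRNAs was lower than siNTC by 2.01 on the log2 scale (log2 fold change -2.01, SE 0.0886, adjusted p = 1.13e-15). Depletion was similar in depth across the siRNAs, with 28.0% of the control level left under si45, 24.9% under si46 and 21.8% under si47.

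Part of the kinetochore transcripts fell modestly when TPX2 was depleted. In the mean of the 3 siRNAs against siNTC, 15 of the 37 genes fell and 0 rose at an adjusted p under 0.05 (edgeR's quasi-likelihood test, Benjamini-Hochberg over all genes tested), where 3.53% of all tested genes fell and 3.61% rose. At an unadjusted p under 0.05, 27 of the 37 were lower and 0 higher (10.3% and 10.1% of tested genes). DESeq2 and limma-voom each also gave 15 lower and 0 higher, with their shares over all tested genes not given here. The log2 fold change was negative for 35 of the 37, with a median of -0.28, against 50.2% of all tested genes and a median of -0.0011. It ranged from -0.75 for CENPI to 0.04 for CENPL, and no gene reached a 2-fold change. In 9 genes (AURKB, CDCA8, CENPF, CENPK, CENPN, CENPU, HJURP, KNL1 and NDC80) all 12 knockdown libraries lay below all 4 controls, a pattern found in 1.03% of tested genes. None of the 37 showed the opposite pattern, found in 1.49% of tested genes. In RNA from whole cultures, fewer cells in G2 or mitosis and less of the transcript in each cell cannot be told apart.

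**Figure D1:**
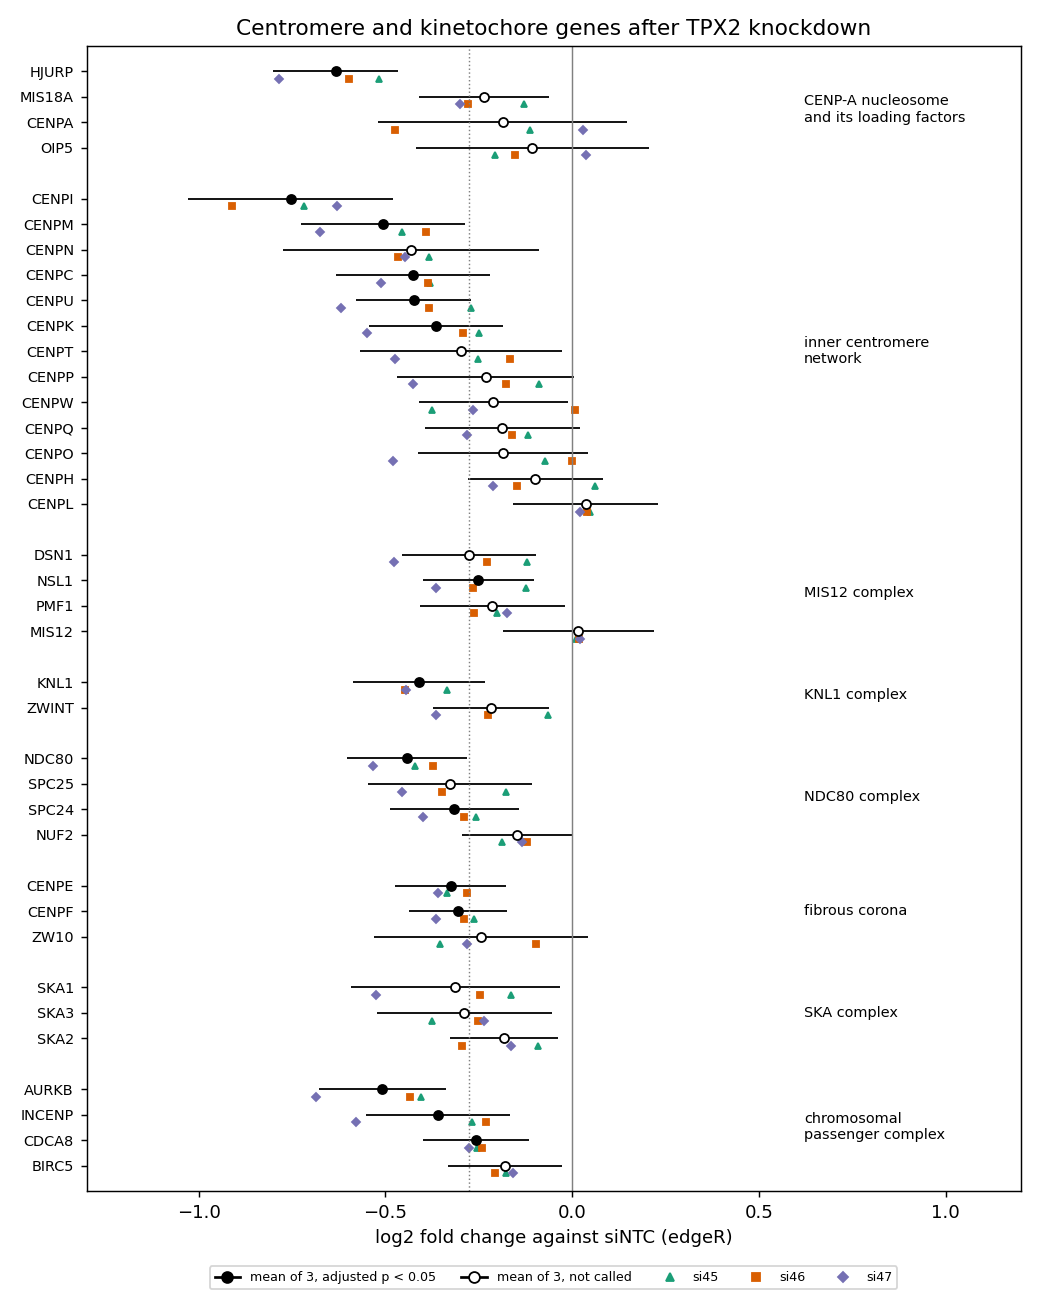
Log2 fold change of each of the 37 genes (horizontal axis) for the mean of si45, si46 and si47 against siNTC, with 95% intervals, grouped by complex. Filled and open points separate genes that did and did not pass the adjusted threshold, the small coloured marks give each siRNA alone, and the dotted line is the median of the 37 (-0.28). 35 of the 37 points lie left of 0, and the 15 that passed run from -0.75 (CENPI) to -0.25 (NSL1).

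The first step of kinetochore assembly is the deposition of CENP-A. HJURP (ENSG00000123485, chr2:233833416-233854566, minus strand), the chaperone that deposits CENP-A, had the lowest p of the 37. Its level was 102, 95.1, 106 and 108 CPM in siNTC (mean 103 ± 5.79, SD, n = 4). Under si45 it was 61.3, 74.9, 83.2 and 67.7 CPM, under si46 70.3, 62.7, 76.8 and 61.7 CPM, and under si47 56.1, 55.2, 69.6 and 57.4 CPM. The 2 ranges do not touch, the highest knockdown library being 83.2 and the lowest control 95.1 CPM. HJURP fell by 0.63 on the log2 scale (SE 0.0849, adjusted p = 4.17e-06).

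The cargo itself did not pass the test. CENPA, the histone variant, had the lowest control level of the 37, 12.5 ± 3.03 CPM, and a log2 fold change of -0.19 (adjusted p = 0.592, 95% interval -0.52 to 0.15). Its mean was 11.5 ± 2.23 CPM under si45, 8.95 ± 0.538 under si46 and 12.7 ± 1.92 under si47, which overlap the controls. Of the Mis18 proteins, which prime centromeres for new CENP-A, MIS18A had a log2 fold change of -0.24 (adjusted p = 0.105) and OIP5 one of -0.11 (adjusted p = 0.766).
OIP5 was at 17.0, 22.4, 25.2 and 16.3 CPM in siNTC, 18.9, 15.4, 13.9 and 21.8 under si45, 17.9, 12.4, 19.7 and 22.7 under si46, and 18.4, 16.9, 20.2 and 27.4 under si47. Of the 12 knockdown libraries, 3 lie below and 1 above all controls, with the rest among them, and the sign of its small difference turned positive (0.011) without siNTC replicate 3. OIP5-AS1, on the other strand across the 3′ end of OIP5, was counted up to 612 times in a library against up to 162 for OIP5. Whether the counting used strand is not given in the sources used here, so reads of the pair may not be told apart. The CENP-A group thus had 1 of 4 genes lower, with a median log2 fold change of -0.21.

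The inner network, the 13 CENP proteins that read CENP-A nucleosomes and carry the outer kinetochore, had 5 genes lower and a median of -0.30. CENPI (ENSG00000102384, chrX:101098218-101163681, plus strand), a subunit of the CENP-H/I/K/M group, had the largest change of the 37. It stood at 21.2, 31.6, 36.9 and 33.8 CPM in siNTC (30.9 ± 6.82), at 16.9, 17.0, 22.9 and 18.2 under si45, at 14.9, 15.1, 19.7 and 15.8 under si46, and at 20.7, 18.1, 25.4 and 15.2 under si47. siNTC replicate 1 is the low control, and 10 of the 12 knockdown libraries lie below it. CENPI fell by 0.75 (SE 0.140, adjusted p = 4.62e-04).

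2 partners of CENPI in the same group also fell, CENPM by 0.51 (adjusted p = 0.00327) and CENPK by 0.36 (adjusted p = 0.0107), while CENPH had a log2 fold change of -0.10 (adjusted p = 0.598). CENPU, a subunit of the CENP-O/P/Q/U group, which helps bring the kinase PLK1 to kinetochores, fell by 0.42 (SE 0.0787, adjusted p = 4.72e-04). Its mean was 161 ± 8.58 CPM in siNTC, 133 ± 14.5 under si45, 123 ± 10.5 under si46 and 105 ± 14.3 under si47, with all 12 knockdown libraries below the controls. Its partners had smaller values, CENPP -0.23 (adjusted p = 0.275), CENPO -0.19 (adjusted p = 0.387) and CENPQ -0.19 (adjusted p = 0.325). PRIMPOL covers the 3′ end of CENPU on the other strand with up to 117 counts against up to 986, and CENPO and CENPP have such neighbours too (ADCY3, up to 72 counts against 266, and IPPK, up to 79 against 326).

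CENPC, the scaffold that joins CENP-A chromatin to the MIS12 complex, fell by 0.43 (SE 0.105, adjusted p = 0.00896). The histone-fold proteins CENPT and CENPW, which form a parallel route to NDC80, had log2 fold changes of -0.30 (adjusted p = 0.210) and -0.21 (adjusted p = 0.229). CENPN, which binds the CENP-A nucleosome directly, had a value as low as that of CENPC, -0.43, but an SE of 0.175 and an adjusted p of 0.139. Its mean was 12.6 ± 0.629 CPM in siNTC and 9.12 to 9.67 CPM in the knockdown groups, and no knockdown library reached a control.
CENPL, the partner of CENPN, had the highest value of the 37. It was at 56.3, 47.9, 72.2 and 56.9 CPM in siNTC, 49.7, 66.2, 66.2 and 58.6 under si45, 58.2, 61.8, 65.3 and 53.8 under si46, and 59.9, 57.3, 54.3 and 64.7 under si47. No knockdown library lies below or above all controls. The log2 fold change was 0.04 (95% interval -0.16 to 0.23, adjusted p = 0.884) and became -0.045 without siNTC replicate 2.

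The MIS12 complex links the inner network to the microtubule-binding complexes, and 1 of its 4 genes fell. NSL1 (ENSG00000117697, chr1:212726153-212791782, minus strand) had 127, 137, 121 and 148 CPM in siNTC (133 ± 11.98), 125, 122, 125 and 117 under si45, 111, 117, 121 and 95.6 under si46, and 90.1, 107, 105 and 113 under si47. The si45 libraries overlap the controls, and the si46 and si47 libraries do not. NSL1 fell by 0.25 (SE 0.0760, adjusted p = 0.0360), a call with little room.
MIS12 itself showed no difference beyond its spread, at 38.2, 36.4, 50.7 and 50.3 CPM in siNTC, 42.5, 47.1, 48.9 and 37.6 under si45, 45.2, 42.9, 46.6 and 42.7 under si46, and 41.3, 49.9, 41.2 and 45.5 under si47. Every knockdown library lies within the control range. Its log2 fold change was 0.02 (95% interval -0.19 to 0.22, adjusted p = 0.955), with a sign that changed in 4 of the 16 fits that left out 1 library (lowest value -0.061, without siNTC replicate 2). DSN1 was at -0.28 (adjusted p = 0.0605) and PMF1 at -0.21 (adjusted p = 0.212).

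KNL1 (ENSG00000137812, chr15:40594020-40664342, plus strand) carries the docking sites of the spindle checkpoint kinase BUB1. It stood at 93.8, 96.8, 87.0 and 87.3 CPM in siNTC (91.2 ± 4.88), 78.2, 74.0, 76.3 and 60.3 under si45, 74.8, 76.9, 60.1 and 55.5 under si46, and 72.6, 57.7, 73.6 and 63.8 under si47. No knockdown library reached the controls, and KNL1 fell by 0.41 (SE 0.0900, adjusted p = 0.00301).
ZWINT, its partner, was at 95.4, 105, 94.6 and 93.5 CPM in siNTC, 99.8, 81.3, 92.6 and 97.6 under si45, 78.7, 83.3, 88.0 and 82.2 under si46, and 72.3, 65.0, 85.2 and 79.2 under si47. The si45 libraries overlap the controls, and the si46 and si47 libraries do not. Its log2 fold change over the 3 siRNAs was -0.22 (SE 0.0791, adjusted p = 0.0893).

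The NDC80 complex is the main microtubule grip of the kinetochore, with NDC80 and NUF2 paired at its head and SPC24 and SPC25 at its base. NDC80 (ENSG00000080986, chr18:2571511-2616635, plus strand) was at 93.5, 99.3, 104 and 102 CPM in siNTC (99.7 ± 4.58), 61.6, 76.9, 83.9 and 75.7 under si45, 75.8, 75.1, 84.3 and 72.5 under si46, and 67.7, 59.3, 72.6 and 75.9 under si47. All 12 knockdown libraries lie below the controls. NDC80 fell by 0.44 (SE 0.0818, adjusted p = 4.62e-04).
NUF2 was at 254, 261, 279 and 266 CPM in siNTC (265 ± 10.4), 236, 219.9, 243 and 233 under si45, 236, 224, 242 and 273 under si46, and 275, 189, 239 and 261 under si47. In 3 knockdown libraries, 1 of si46 and 2 of si47, NUF2 lies within the control range. Its log2 fold change was -0.15 (SE 0.0750, adjusted p = 0.260). SPC24 fell by 0.32 (adjusted p = 0.0220), and SPC25 was at -0.33 (adjusted p = 0.0684).

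**Figure D2:**
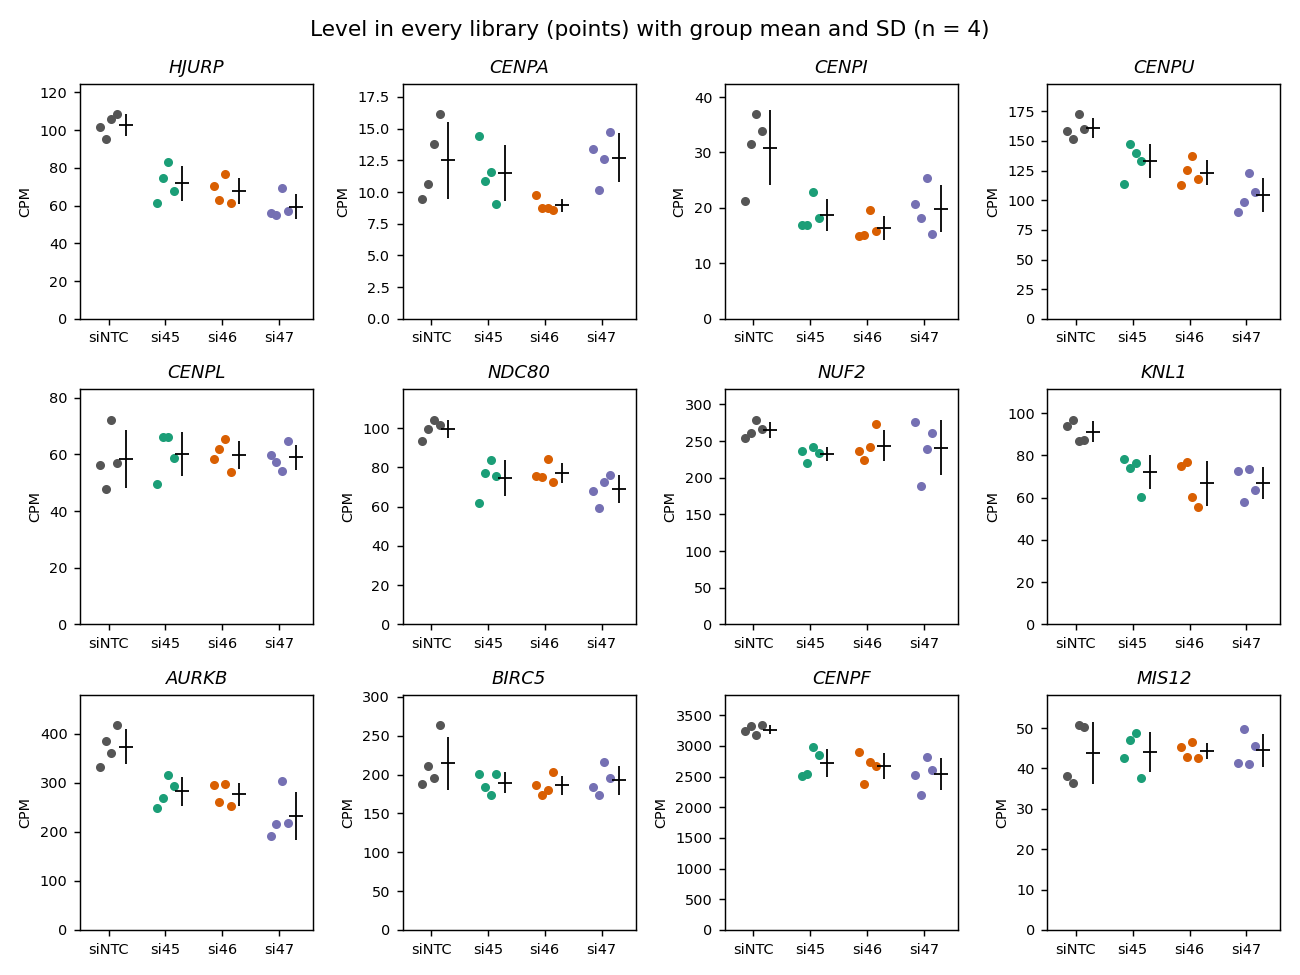
Level in CPM (vertical axis of each panel, starting at 0) of 12 of the 37 genes in siNTC, si45, si46 and si47. Points are the 4 libraries of a group, and the dash and bar beside them are the mean and SD. HJURP, KNL1, NDC80, CENPF and AURKB show no overlap between controls and knockdowns, while the libraries of CENPL and MIS12 overlap.

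Of the fibrous corona, the outermost layer that catches microtubules from the side, 2 of 3 genes fell. CENPF (ENSG00000117724, chr1:214603195-214664588, plus strand), a large corona protein that binds dynein regulators, was the most abundant of the 37 by CPM and made up 48.02% of their summed CPM in siNTC. It stood at 3236, 3325, 3174 and 3337 CPM in siNTC (3268 ± 77.0), 2518, 2539, 2990.1 and 2845 under si45, 2898, 2385, 2742 and 2671 under si46, and 2525, 2199, 2822 and 2603 under si47. The highest knockdown library is below the lowest control, and CENPF fell by 0.31 (SE 0.0672, adjusted p = 0.00301).
CENPE, the kinesin that carries chromosomes to the spindle equator, fell by 0.33 (SE 0.0753, adjusted p = 0.00493). ZW10, a subunit of the complex that recruits dynein, was at 22.9, 15.2, 21.0 and 19.3 CPM in siNTC, 10.4, 16.1, 17.2 and 17.8 under si45, 18.0, 15.3, 18.3 and 21.6 under si46, and 14.9, 17.8, 16.6 and 15.1 under si47. Only 3 of the 12 knockdown libraries lie below all controls, and the log2 fold change was -0.24 (SE 0.147, adjusted p = 0.360).

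The SKA complex holds on to shortening microtubules, and none of its 3 genes passed the adjusted threshold in edgeR, although all 3 were lower at an unadjusted p under 0.05. SKA2 (ENSG00000182628, chr17:59109951-59155269, minus strand) was at 458, 435, 541 and 487 CPM in siNTC, 416, 427, 483 and 476 under si45, 379.7, 359.6, 411 and 417 under si46, and 396, 366, 491 and 462 under si47. Only the si46 libraries lie entirely below the controls. Its log2 fold change was -0.18 (SE 0.0739, adjusted p = 0.138), beside -0.29 for SKA3 (adjusted p = 0.150) and -0.31 for SKA1 (adjusted p = 0.202). DESeq2 and limma-voom also called 0 of the 3, and SKA2 passed with the replicate number as a block (adjusted p = 0.0145).

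The chromosomal passenger complex destabilises wrong attachments through its kinase AURKB, and 3 of its 4 genes fell. AURKB (ENSG00000178999, chr17:8204733-8210600, minus strand) had 332, 385, 362 and 417 CPM in siNTC (374 ± 36.1), 249, 270.0, 317 and 295 under si45, 296, 261, 298 and 252 under si46, and 192, 217, 303 and 219 under si47. All 12 knockdown libraries are below the controls, and AURKB fell by 0.51 (SE 0.0863, adjusted p = 2.47e-04). INCENP, the scaffold that activates AURKB, fell by 0.36 (adjusted p = 0.0204), and CDCA8 (borealin), which helps target the complex to the centromere, fell by 0.26 (adjusted p = 0.0235).
BIRC5 (survivin), the reader of the centromeric histone mark, was at 188, 211, 196 and 264 CPM in siNTC, 201, 183, 174 and 201 under si45, 186, 174, 180.1 and 204 under si46, and 184, 174, 217 and 195 under si47. siNTC replicate 4 is the high control, and 5 knockdown libraries are within the control range. Its log2 fold change was -0.18 (SE 0.0779, adjusted p = 0.169).

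The 22 genes that did not pass are not shown to be unaffected. Their SEs (0.0739 to 0.175) overlap those of the 15 that passed (0.0672 to 0.140), 20 of the 22 had negative values, and for the same number the 95% interval held the median of the 37 genes, -0.28. The intervals of the remaining 2, CENPL and MIS12, lay above that median. The median itself includes these 22 genes and equals the value of DSN1, so this is a description and not a test. Of the 15 calls, 8 held without each of the 16 libraries in turn (HJURP, CENPI, CENPM, CENPU, KNL1, NDC80, CENPF and AURKB). Without siNTC replicate 2 the adjusted p was 0.0995 for CENPC, 0.0728 for CENPK, 0.0656 for CENPE and 0.0673 for INCENP, and INCENP had 0.166 without siNTC replicate 4. SPC24 had 0.0839, 0.109 and 0.0711 without siNTC replicate 1, 3 or 4, and CDCA8 had 0.103 and 0.0870 without siNTC replicate 1 or 3. NSL1 missed the threshold in 8 of these fits, with adjusted p from 0.0526 (si45 replicate 4 left out) to 0.197 (siNTC replicate 4 left out), the other 6 being those without siNTC replicate 1 or 2, si45 replicate 1 or 2, si46 replicate 4 or si47 replicate 1. In the other direction, DSN1 passed without siNTC replicate 2, si45 replicate 3, si46 replicate 2 or si47 replicate 3 (0.0389, 0.0330, 0.0456 and 0.0403), ZWINT and SPC25 without si47 replicate 3 (0.0483 and 0.0339) and SKA3 without siNTC replicate 2 (0.0391).

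Each siRNA was then read alone against the same 4 control libraries, so these contrasts share their controls and are given side by side. Under si45, 3 of the 37 genes fell (HJURP, CENPI and NDC80; 0.324% of tested genes fell), with a median log2 fold change of -0.25. Under si46, 7 fell (HJURP, CENPI, NDC80, CENPU, KNL1, CENPF and AURKB; 1.25% of tested genes fell), with a median of -0.26. Under si47, 19 fell (4.83% of tested genes fell), with a median of -0.36. No gene of the 37 rose under any siRNA, by the adjusted or the unadjusted p in edgeR or by the adjusted p in DESeq2 or limma-voom. Under si45, si46 and si47, 1.01%, 2.14% and 4.91% of tested genes rose by the adjusted p, and 5.95%, 7.79% and 11.8% were higher by the unadjusted p. The 4 libraries of a group lay below all 4 controls for 12 of the 37 genes under si45 (2.95% of tested genes), for 14 under si46 (4.67%) and for 20 under si47 (6.98%).

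The smaller counts rest on single libraries. For the fits that leave out a library, the share of all tested genes that fell is not given here. For si45 the count was 0 without si45 replicate 1, 1 without siNTC replicate 2, 3 or 4 or si45 replicate 2 or 4, and 6 without si45 replicate 3. For si46 it was 3 without siNTC replicate 2 or 4 or si46 replicate 2, 4 without siNTC replicate 3, and 2 without si46 replicate 4. For si47 it was 12 without si47 replicate 2. With the replicate number as a block it was 10 for si45, 13 for si46 and 23 for si47, and the share of all tested genes that fell rose with it, to 1.71%, 3.43% and 7.96%.

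By gene, HJURP had log2 fold changes of -0.52 under si45, -0.60 under si46 and -0.79 under si47 (adjusted p = 0.00527, 5.99e-04 and 4.90e-06). CENPI had -0.72, -0.91 and -0.63 (adjusted p = 0.0273, 0.00170 and 0.0180). NDC80 had -0.42, -0.37 and -0.53 (adjusted p = 0.0252, 0.0330 and 5.94e-04). For AURKB the values were -0.41, -0.43 and -0.69, of which the first did not pass (adjusted p = 0.0569).
The 19 genes that fell under si47 spread over 7 of the 8 complexes: 1 of 4 in the CENP-A group, 6 of 13 in the inner network, 2 of 4 in MIS12, both KNL1 genes, 3 of 4 in NDC80, 2 of 3 in the corona and 3 of 4 passenger genes, with 0 of 3 in SKA. They include DSN1 (-0.48, adjusted p = 0.00560), ZWINT (-0.36, adjusted p = 0.0137), SPC25 (-0.46, adjusted p = 0.0313) and CENPO (-0.48, adjusted p = 0.0288), which did not pass over the 3 siRNAs together. CENPO had -0.07 under si45 and -0.00 under si46.

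The siRNAs were also compared directly. For 24 of the 37 genes the log2 fold change was lowest under si47, for 7 under si46 and for 6 under si45. None of the 37 genes passed in si46 against si45, si47 against si45 or si47 against si46 (edgeR), where 0.0282%, 0.169% and 0.0493% of tested genes passed, and 2, 11 and 8 of the 37 had an unadjusted p under 0.05 (4.1%, 10.4% and 7.29% of tested genes). DESeq2 called 0, 1 and 0 of the 37, with its shares over all tested genes not given here. The smallest p of these was that of CENPU in si47 against si45 (log2 difference -0.35, SE 0.0995, adjusted p = 0.123).
In si47 against si45, 2 genes of the 37 passed with the replicate number as a block (2.8% of tested genes passed), CENPU (-0.35, SE 0.0821, adjusted p = 0.00797) and DSN1 (-0.35, SE 0.104, adjusted p = 0.0453), and DESeq2 called CENPU (adjusted p = 0.0470). Without si47 replicate 3, CENPU (-0.44, adjusted p = 0.0253) and AURKB (-0.43, adjusted p = 0.0193) passed. That these genes are lower under si47 than under si45 therefore depends on the fit, and the larger count under si47 alone does not show a difference between siRNAs.

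Read by library, the summed level of the 37 genes was 6805 ± 159 CPM in siNTC (SD, n = 4; 6616 to 7005), 5738 ± 392 under si45 (5395 to 6224), 5589 ± 285 under si46 (5209 to 5838) and 5307 ± 493 under si47 (4690.2 to 5873). CENPF weighs heavily in that sum, so the mean over the genes of log2(CPM + 1), relative to the siNTC mean, was read as well, with no test. It was -0.05, -0.06, 0.08 and 0.03 in siNTC, -0.28, -0.30, -0.12 and -0.23 under si45, -0.26, -0.30, -0.20 and -0.31 under si46, and -0.37, -0.47, -0.25 and -0.35 under si47. All 12 knockdown libraries are below the controls on this scale, and the replicate 3 library is the highest of its group in every group. Without replicate 3 of any group, 13 of the 37 genes fell in the mean contrast and 6 under si45 (shares over all tested genes not given here).

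**Figure D3:**
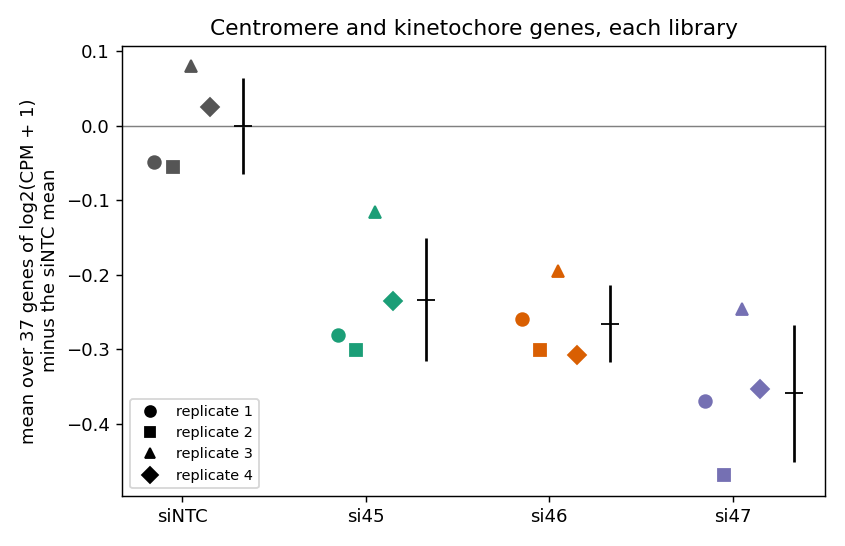
Mean over the 37 genes of log2(CPM + 1) relative to the siNTC mean (vertical axis) for each of the 16 libraries, by group (horizontal axis), with 1 symbol per replicate number and the group mean and SD beside the points. The 12 knockdown libraries lie between -0.47 and -0.12, below the 4 controls, and replicate 3 is the highest in each group.

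Subunits that work as pairs were compared through the log2 ratio of their levels, log2(CPM + 1), within each library. 14 pairs were set after the values of the single genes had been seen, so their ratios are a description with no test. In NDC80 over NUF2, the pair at the head of the NDC80 complex, the log2 ratio was -1.40 ± 0.0255 (SD, n = 4) in siNTC. It was -1.69 ± 0.172 over the 12 knockdown libraries, an SD that mixes the spread between siRNAs with that between replicates. All 12 lie below all controls. The difference was -0.29, with -0.24 under si45, -0.25 under si46 and -0.38 under si47. It ranged from -0.31 to -0.26 without each library in turn.
CENPL over CENPN differed by 0.45, CENPH over CENPK by 0.26 and CENPA over HJURP by 0.47, with 7, 7 and 5 of 12 knockdown libraries above all controls. KNL1 over ZWINT differed by -0.20, with 9 of 12 below all controls and 1 above. CENPQ over CENPU differed by 0.24, with 8 above and 1 below, and INCENP over AURKB by 0.15, with 8 above. How often gene pairs outside the 14 separate like this was not read. SPC24 over SPC25, at the base of the NDC80 complex, differed by 0.01, and DSN1 over NSL1 by -0.02, each with a sign that changed when single libraries were left out.

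**Figure D4:**
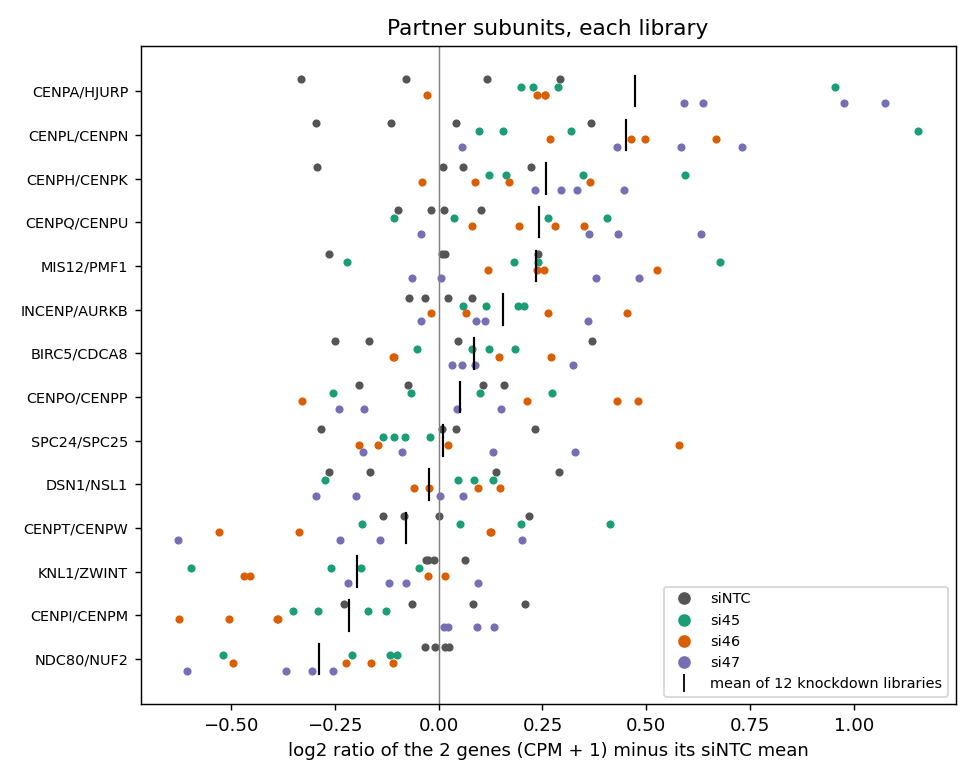
Log2 ratio of partner subunits, knockdown libraries minus siNTC (horizontal axis), for the 14 pairs. Points are libraries coloured by group, set to the siNTC mean, and the black line is the mean of the 12 knockdown libraries. NDC80 over NUF2 lies at -0.29 and SPC24 over SPC25 at 0.01.

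A further list of 23 centromere, kinetochore and spindle checkpoint genes outside the 37 was read in the same fit, and 22 were tested. In the mean contrast 3 fell and 0 rose (3.53% and 3.61% of tested genes), 12 were lower and 0 higher at an unadjusted p under 0.05 in edgeR (10.3% and 10.1%), 18 had negative values, and the median log2 fold change was -0.22. Among the 3, KNTC1, which works with ZW10, fell by 0.38 (adjusted p = 0.0297), and BUB3, the checkpoint protein that docks on KNL1, by 0.22 (adjusted p = 0.0454). DESeq2 gave 4 lower and 0 higher, and limma-voom 3 and 0. For these and the alternatives that follow, the share over all tested genes is not given here. The count was 8 with the replicate block, 1 without siNTC replicate 2 or 4, si45 replicate 1 or si47 replicate 1, and 7 without si47 replicate 3. KNTC1 missed the threshold in the 4 fits that left a count of 1 (adjusted p up to 0.272, without siNTC replicate 2). BUB3 missed it in 9 of the 16 fits without 1 library: those without siNTC replicate 2, 3 or 4, si45 replicate 1 or 2, si46 replicate 2 or 4, or si47 replicate 1 or 4 (adjusted p 0.0559 to 0.210).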

How the data were processed

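RNA of 16 IMR32 libraries was profiled with a 3′ end kit, per the labels. The authors deposited 1 table of raw counts per Ensembl gene, whole numbers with no normalization. The submitters' processing notes name GRCh38, FastQC 0.11.7, STAR 2.7.2b, edgeR 3.36.0 and limma 3.50.3 without their roles. The counter, the annotation, strand use and molecular identifiers are not given in the sources used here. Libraries were grouped by siRNA. Totals ran from 5318159 to 7864343 counts, and no pair of replicates agreed within sampling noise (chi-square per degree of freedom 4.36 to 9.80). p-values measure the spread between these replicates.

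All 58787 genes were filtered with filterByExpr (minimum count 10, minimum total 15), scaled by TMM and fitted in edgeR 4.0.16 (R 4.3.3) as 1 quasi-likelihood model of the 4 groups with no covariate. p-values were adjusted by Benjamini-Hochberg per contrast, with a threshold of 0.05. The SE is the log2 fold change divided by the root of F, and 95% intervals are 1.96 SEs on either side. These intervals are approximate and slightly narrower than the quasi-likelihood F test implies. For NUF2 in the mean contrast the interval was -0.29 to -0.00071, while the unadjusted p of that test was 0.057. Partner ratios used log2(CPM + 1), with p-values adjusted by Benjamini-Hochberg over the pairs, and none passed the threshold. Alternatives were DESeq2 1.42.0, limma-voom (limma 3.58.1), other scaling and filters, the replicate block and leaving out libraries. The pipeline was tested on simulated data. Promoter windows came from the RefSeq table (GRCh38.p14) and gene positions from GENCODE on GRCh38. Figures were drawn with matplotlib 3.10.9.

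Same-numbered si45 and si47 libraries deviated from their group means together, with a correlation over 0.1 in each of the 4 pairs (r = 0.120 to 0.242). The si45 and si46 libraries passed 0.1 in 3 of 4 pairs (r up to 0.247), as did those of si46 and si47 (up to 0.209). With siNTC, 2 pairs of si45 passed it and 1 pair each of si46 and si47. Every same-numbered correlation was positive (lowest 0.0188, siNTC with si47). Pairing by replicate number comes from the values, not the labels. Genes given in every library were TPX2 and, in each complex, the gene with the lowest p and the gene with the highest log2 fold change in the mean contrast. CENPA, CENPN, CENPU and the remaining genes are given by means, ranges and tests. The members, lists and rules were chosen with earlier results of these data known. Some items the rules also covered are not reported here.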

Additional observations from a re-analysis of the deposited data

Results flagged for a closer look

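In 7 of 156 groups of 4 libraries, 1 library lay far from its 3 neighbours by Dixon's 95% criterion, where chance at 1 in 20 gives 7.8. TPX2 was 121 CPM in si45 replicate 3, against 79.4 to 85.1 in the other si45 libraries. HJURP was 69.6 CPM in si47 replicate 3, against 55.2 to 57.4. CENPA was 9.75 CPM in si46 replicate 1, against 8.57 to 8.75. CENPH was 66.0 CPM in si45 replicate 4, against 52.0 to 54.3. CENPW was 48.4 CPM in si47 replicate 4, against 40.3 to 41.0. In siNTC replicate 2, CENPT was 21.7 CPM against 19.6 to 19.9, and ZWINT was 105 CPM against 93.5 to 95.4.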

How the results depend on the processing

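Of the 37 genes, 34 kept a negative sign in every fit. The counts below are given without the share of all tested genes called in the same fit. That share can move as well: with the replicate block, the share of tested genes that fell under si45 went from 0.324% to 1.71%. Whether the changes in count exceed those over all genes was not tested. The count of 15 in the mean contrast ran from 12 to 18 without single libraries and was 19 with the replicate block and 13 with no low-count filter, which cost NSL1 and CDCA8 (adjusted p = 0.0535 and 0.0578). Without replicate 3 of any group, an alternative chosen after seeing the data, it was 13 and SPC24 and CDCA8 missed the threshold (adjusted p = 0.0649 and 0.0806). The si45 count of 3 became 2 with limma-voom, 5 with DESeq2, 5 with no low-count filter, 10 with the replicate block and 6 without replicate 3 of any group, and ran from 0 to 6 without single libraries. For si46 the count of 7 became 6 with at least 10 counts in every library and 13 with the replicate block, and ran from 2 to 8 without single libraries. The si47 count of 19 was 23 with the block and ran from 12 to 20 without single libraries. For si47 against si45, 0 became 1 with DESeq2, 2 with the replicate block and 0 to 2 without single libraries, and the other contrasts between siRNAs gave 0 throughout. The count of 3 among the other centromere and kinetochore genes, whose alternatives were added after seeing the data, became 2 with no or the stricter low-count filter, 8 with the replicate block and 5 without replicate 3 of any group, and ran from 1 to 7 without single libraries. Signs turned for values near 0. Without single libraries OIP5 ran from -0.20 to 0.011 (0.033 without replicate 3 of any group), CENPL from -0.045 to 0.15 and MIS12 from -0.061 to 0.090. The ratios ran from -0.012 to 0.10 for CENPO/CENPP, -0.11 to 0.074 for DSN1/NSL1 and -0.084 to 0.087 for SPC24/SPC25. The cause was not tested. With 4 libraries a group and SEs of 0.0672 to 0.175, differences as small as the median of -0.28 were close to the threshold for many genes.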
